A study of Mus musculus with 9 samples.

Results

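The genes described here are the mouse platelet-derived growth factor (PDGF) family, that is the 4 ligand genes Pdgfa, Pdgfb, Pdgfc and Pdgfd, the 2 receptor genes Pdgfra and Pdgfrb, and the receptor-like gene Pdgfrl. These 7 members were taken by gene symbol, with earlier results of these data known, from the 54532 genes of the deposited expression table. Bulk RNA sequencing was done on 9 libraries of cardiosphere-derived cells (CDCs) from C57BL/6 mouse heart, 3 in each of 3 groups. Cardiosphere-derived cells are outgrowth cells of heart tissue that pass through a stage of floating spheres before they are replated as a monolayer, and here they were grown from the epicardium, the outer layer of the heart.

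The first group, called pECDCs, was the primary cells. Its sample titles read P0, while the study's methods state that primary cells were used at passage 3. The passage of these libraries is not known here. The second group, called iECDCs, was the same kind of cell immortalized with human telomerase reverse transcriptase (hTERT) and taken at passage 30, after lentiviral transduction and puromycin selection. The third group was labelled as iECDCs at passage 30 exposed for 3 days to SB431542, an inhibitor of the kinase of the transforming growth factor beta (TGF-β) type I receptor. The study's methods describe an SB431542-treated epithelial clone derived from primary cells, and its discussion places such clones later than 3 days. The sources used here do not say whether that clone is this group or another sample, and the group is taken as labelled. Cdkn2a, a cell cycle inhibitor gene often lost in cultured lines, had 550, 407 and 562 counts in the pECDC libraries, 0, 1 and 0 counts in the iECDC libraries and 0, 0 and 0 counts in the SB431542 libraries. The third group thus shared the near absence of Cdkn2a counts with the iECDCs. The study's discussion says that the clones re-expressed Wt1 and Tcf21, without showing the data. Both genes were called higher in the third group than in pECDCs and than in iECDCs. Whether this group holds such clones was not tested. A vehicle control of the treatment was not analysed here, and the iECDCs served as its reference. The study's methods call the replicates biological but give fewer of them per condition than the 3 libraries analysed here. Its figure legends for the sequencing of pECDCs and iECDCs give n = 3. Neither the methods nor the labels say that the 3 libraries of a group came from separate cultures or animals. The p-values below therefore measure the spread between these libraries, which may be in part technical.

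PDGF ligands are secreted dimers. PDGF-AA and PDGF-CC act mainly through receptor alpha and PDGF-BB and PDGF-DD through receptor beta, and the C and D chains must be cut by a protease before they can bind. The receptors are tyrosine kinases of mesenchymal cells that recruit phosphoinositide 3-kinase, phospholipase C gamma, the Ras pathway and STAT proteins. In the heart, both receptors mark epicardium-derived mesenchymal cells, fibroblasts and, for receptor beta, pericytes and vascular smooth muscle.

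Total counts over genes lay between 16568306 and 23951392 per library. iECDC replicate 3 and SB431542 replicate 2 stood apart from the other libraries of their groups. The chi-square per degree of freedom over gene counts was 4.61 between iECDC replicates 1 and 2, against 30.8 and 24.9 to replicate 3, and it was 3.79 between SB431542 replicates 1 and 3, against 71.6 and 70.3 to replicate 2. The pECDC libraries differed from each other by 2.70 to 4.23 on that scale. Of the 9 fibroblast markers, Col1a1 was high in pECDCs, iECDCs and SB431542-treated cells, at 647, 528 and 599 FPKM on average. Col1a2, Col3a1 and Ddr2 were expressed in every group as well. Dcn averaged 0.77, 0.47 and 13.2 FPKM, Tcf21 0.73, 0.52 and 1.43 FPKM, and Dpt 0.56, 0.26 and 1.17 FPKM in the same groups. Postn had at most 12 counts and Lum at most 8 counts in a library. Among the 7 endothelial markers (Pecam1, Cdh5, Kdr, Tek, Emcn, Cldn5 and Tie1) summed expression did not pass 0.165 FPKM in any library. The CDC surface markers Thy1 and Eng were present, at 122, 135 and 125 FPKM and at 67.3, 86.3 and 76.0 FPKM on average in pECDCs, iECDCs and SB431542-treated cells. The 7 blood cell markers summed to 8.23 to 16.8 FPKM in a library, nearly all of it from Csf1r (260 to 679 counts), Cd14 (90 to 292 counts) and Cd68 (13 to 60 counts), while Ptprc had at most 4 counts, Itgam at most 1 and Fcgr1 had 0. The 7 cardiomyocyte markers summed to 0.328 to 2.31 FPKM, from Tnnt2 (7 to 262 counts) and Tnni3 (12 to 33 counts), while Myh6 had at most 1 count in a library. Tnnt2 rose in iECDCs against pECDCs and fell in SB431542-treated cells against iECDCs (edgeR adjusted p = 0.00202 and 0.00378). The part of these genes in the results below was not tested.

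Upstream sequence is shown for 2 members, the alpha receptor gene Pdgfra and the ligand C gene Pdgfc. RefSeq windows on GRCm38.p6 were found for 4 of the 7 members (Pdgfa, Pdgfc, Pdgfd and Pdgfra). The 250 bases before the start are given 5′ to 3′ on the gene's strand for Pdgfra (chr5:75152001-75152250, plus strand) and Pdgfc (chr3:81036166-81036415, plus strand), because the first rose and the second did not pass the test when TGF-β receptor kinase was inhibited. Neither window overlapped an annotated exon of its gene. Capitals mark CAGAC, the core of a SMAD element, on either strand (GTCTG on the other strand).
Pdgfra: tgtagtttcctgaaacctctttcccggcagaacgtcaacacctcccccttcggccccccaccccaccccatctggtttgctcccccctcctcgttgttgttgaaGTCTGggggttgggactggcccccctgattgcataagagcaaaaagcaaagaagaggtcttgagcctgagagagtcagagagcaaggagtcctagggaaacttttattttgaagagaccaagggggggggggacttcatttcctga
Pdgfc: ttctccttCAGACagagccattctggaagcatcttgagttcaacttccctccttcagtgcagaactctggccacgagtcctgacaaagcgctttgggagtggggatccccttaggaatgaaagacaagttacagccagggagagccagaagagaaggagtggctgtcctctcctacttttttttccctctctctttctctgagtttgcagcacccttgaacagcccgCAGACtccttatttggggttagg
The Pdgfra window held 1 CAGAC match, at position -146 from the start, and the Pdgfc window held 2, at positions -242 and -23. Of 32851 promoter windows of the same length, 42.2% held at least 1 such match. The letters GGGCGG (GC box, in 32.7% of windows), CCAAT (33.8%), TATAAA (12.4%), TGANTCA (an AP-1 site, 6.75%) and GCGNGGGCG (an EGR1 site, 4.7%) were searched on both strands and were in neither window. GCGNGGGCG and GGGCGG share the letters GGGCG, so their matches can overlap. These matches are a description of letters and say nothing of binding in these cells.

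Levels between genes are given as FPKM, which divides the count by gene length and library size. The deposited length is 10024 bases for Pdgfra, 5478 for Pdgfrb and 3119 for Pdgfa, and the order between genes depends on it. Pdgfra and Pdgfrb had 3759 and 4053 counts in pECDC replicate 1 and 3696 and 3675 counts in SB431542 replicate 2. In iECDC replicate 1 Pdgfra had 2091 counts and Pdgfa 876. The length of the transcripts expressed was not tested. Pdgfrb was the highest member in each of the 3 groups, with 30.9 ± 0.68 FPKM in pECDCs, 22.3 ± 1.11 in iECDCs and 51.8 ± 17.7 in SB431542-treated cells (SD, n = 3). In pECDCs the order went on with Pdgfra, Pdgfa, Pdgfc, Pdgfd, Pdgfrl and Pdgfb, and no neighbours in that order overlapped over the 3 libraries. In iECDCs Pdgfa stood above Pdgfra, by 1.35 times on average, and Pdgfd and Pdgfc overlapped. In SB431542-treated cells Pdgfra stood above Pdgfa by 2.10 times, and Pdgfd and Pdgfc again overlapped. Pdgfb was the lowest member in each group, with 5 to 16 counts in a library.

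**Figure D1:**
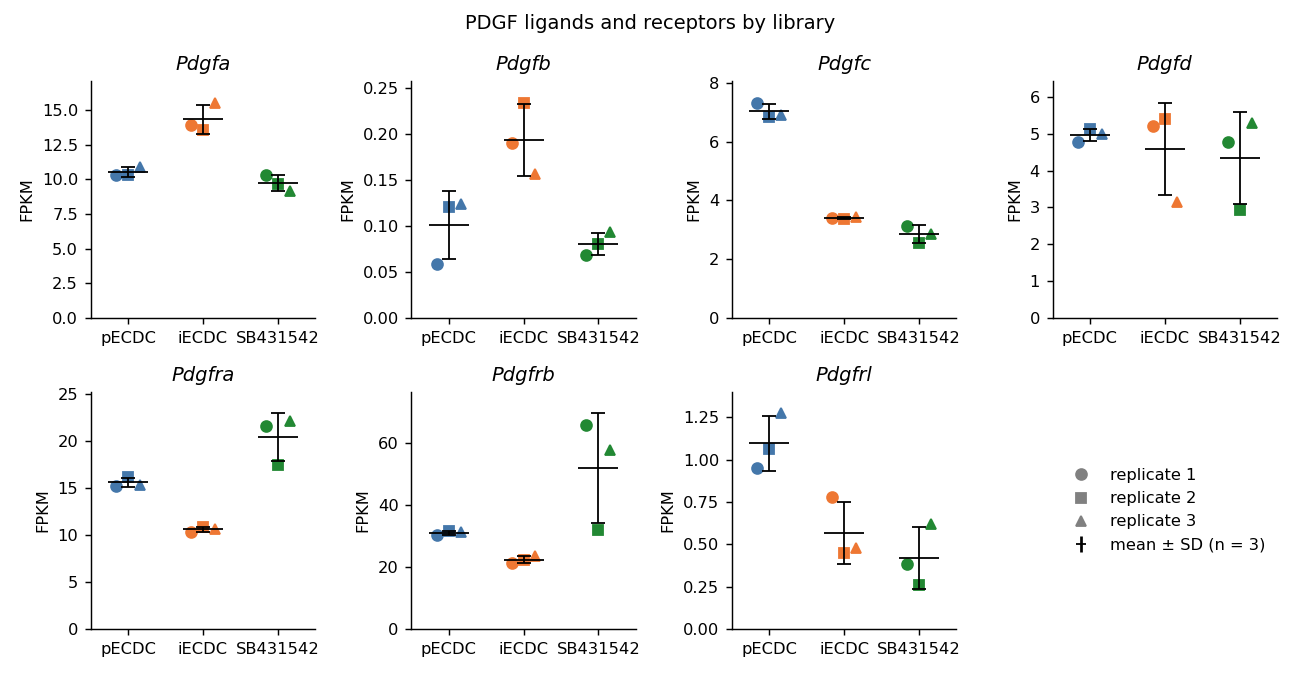
FPKM of each PDGF gene (vertical axis, starting at 0 and scaled per gene) in the pECDC, iECDC and SB431542 libraries. Symbols are single libraries and bars are the mean ± SD of 3 libraries. Pdgfra and Pdgfrb were lowest in iECDCs, Pdgfa was highest there, and Pdgfc was highest in pECDCs.

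Across the family, both receptor genes were lower in iECDCs than in pECDCs and higher after SB431542 than in iECDCs, and Pdgfa changed in the opposite direction each time. For iECDCs against pECDCs, a comparison on long culture and immortalization, 5 of the 7 members passed the test, beside 16.4% of all 13752 genes tested. Pdgfa was higher, beside 7.21% of genes called higher, and Pdgfc, Pdgfra, Pdgfrb and Pdgfrl were lower, beside 9.21% called lower. For SB431542-treated cells against iECDCs, a comparison on TGF-β receptor inhibition, 4 of 7 passed, beside 30% of 13559 genes. Pdgfra and Pdgfrb were higher, beside 16% of genes, and Pdgfa and Pdgfb lower, beside 14%. For SB431542-treated cells against pECDCs, 4 of the 6 members tested passed, beside 34.8% of 14015 genes. Pdgfra and Pdgfrb were higher, beside 17.9% of genes, and Pdgfc and Pdgfrl lower, beside 17%. The number of members whose FPKM did not overlap between the groups was 6 of 7, 5 of 7 and 4 of 6 in the 3 comparisons, where 39.9%, 46.5% and 51.5% of all genes tested did not overlap.

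The count of 4 in the last comparison depended on the libraries in the fit. It was 2 without pECDC replicate 1 or without SB431542 replicate 3, 1 without pECDC replicate 2, without pECDC replicate 3 or without SB431542 replicate 1, and 4 without SB431542 replicate 2. The comparisons share groups, so their directions are not independent of each other.

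The alpha receptor Pdgfra (ENSMUSG00000029231) lies on chromosome 5 from 75152292 to 75198215 on the plus strand, between Gsx2 and Kit. It had 15.3, 16.2 and 15.4 FPKM in the pECDC libraries, 10.3, 10.8 and 10.7 FPKM in the iECDC libraries and 21.7, 17.5 and 22.2 FPKM in the SB431542 libraries. The 3 groups did not overlap, with iECDCs lowest and SB431542-treated cells highest. Pdgfra fell in iECDCs against pECDCs by 0.57 on the log2 scale (SE 0.059, adjusted p = 0.000332 in the edgeR quasi-likelihood test). It was 1.94-fold higher in SB431542-treated cells against iECDCs, a log2 change of 0.96 (SE 0.12, edgeR adjusted p = 0.00180). Against pECDCs the rise was 1.32-fold, a log2 change of 0.40 (SE 0.11, edgeR adjusted p = 0.0251), and this call was lost in 6 of 15 alternatives, at an adjusted p of up to 0.1003.

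The beta receptor Pdgfrb (ENSMUSG00000024620) lies on chromosome 18 from 61045150 to 61085061 on the plus strand, 15.5 kb from Csf1r. It had 30.2, 31.5 and 31.1 FPKM in the pECDC libraries, 21.2, 22.2 and 23.4 FPKM in the iECDC libraries and 65.8, 31.9 and 57.8 FPKM in the SB431542 libraries. SB431542 replicate 2 was thus barely above the highest pECDC library, while the other 2 SB431542 libraries stood far above it. Pdgfrb fell in iECDCs against pECDCs by 0.49 on the log2 scale (SE 0.061, edgeR adjusted p = 0.00102), and this call was lost when all 9 libraries entered the fit, at an adjusted p of 0.225. It was 2.35-fold higher in SB431542-treated cells against iECDCs, a log2 change of 1.23 (SE 0.24, edgeR adjusted p = 0.00902), and 1.48 without SB431542 replicate 2. Against pECDCs it was 1.69-fold higher, a log2 change of 0.76 (SE 0.24, edgeR adjusted p = 0.0494), a call that was lost in 10 of 15 alternatives and that stood at an adjusted p of 4.68e-12 without SB431542 replicate 2.

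Both receptor genes were read side by side as the log2 ratio of Pdgfra to Pdgfrb FPKM in each library. The ratio averaged -0.99 ± 0.030 in pECDCs, -1.07 ± 0.054 in iECDCs and -1.28 ± 0.38 in SB431542-treated cells (SD, n = 3). Pdgfrb FPKM was 1.94 to 2.03 times Pdgfra FPKM in pECDCs and 2.05 to 2.19 times in iECDCs. In the treated libraries the multiple was 3.04, 1.82 and 2.61, so replicate 2 sat below the other groups and replicates 1 and 3 above them. The size of each multiple depends on the gene lengths used, while differences between groups do not. The difference in mean log2 ratio was -0.22 against iECDCs and -0.30 against pECDCs, each with an exact two-sided permutation p of 0.4, and -0.081 for iECDCs against pECDCs with p = 0.1, the smallest that 3 against 3 libraries allow. The first of these was -0.056 without SB431542 replicate 1 and -0.43 without SB431542 replicate 2, and the second was -0.14 and -0.51, so their size rested on single libraries. The iECDC to pECDC difference was -0.050 without iECDC replicate 3.

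**Figure D2:**
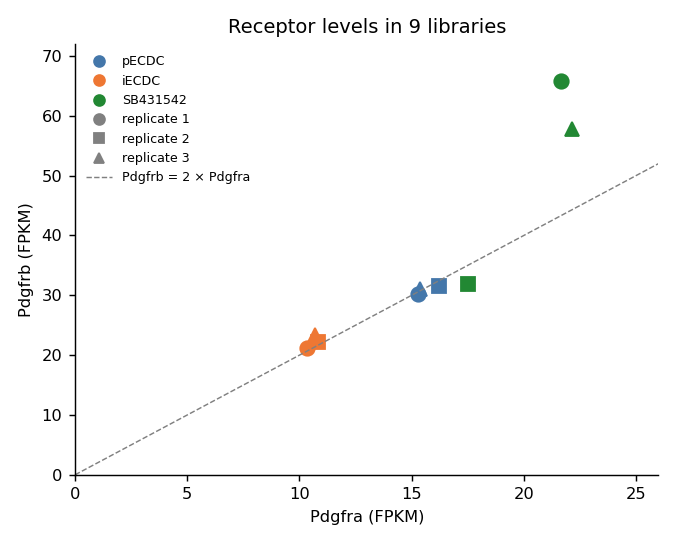
Pdgfrb FPKM (vertical axis) against Pdgfra FPKM (horizontal axis) in the 9 libraries, 1 point each, with a dashed line where Pdgfrb is 2 times Pdgfra. The pECDC and iECDC libraries lie close to the line, SB431542 replicates 1 and 3 lie above it at 65.8 and 57.8 FPKM of Pdgfrb, and SB431542 replicate 2 lies just under it at 31.9.

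Pdgfrl, a receptor-like gene whose product lacks the kinase part, was low throughout. Its locus (ENSMUSG00000031595) is on chromosome 8 from 40926212 to 40990785 on the plus strand, 0.129 kb from Mtus1. It had 73, 66 and 93 counts in the pECDC libraries, 49, 23 and 23 counts in the iECDC libraries and 21, 17 and 35 counts in the SB431542 libraries. Every pECDC library was above every other library. Pdgfrl fell by 0.93 on the log2 scale in iECDCs against pECDCs (SE 0.24, edgeR adjusted p = 0.0311) and by 1.38 in SB431542-treated cells against pECDCs (SE 0.32, edgeR adjusted p = 0.0160), calls that were lost in 6 and in 3 of 15 alternatives. Between SB431542-treated cells and iECDCs the log2 change was -0.44, with a 95% interval from -1.34 to 0.45 (edgeR adjusted p = 0.413).

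Among the ligands, Pdgfa had the highest FPKM in every library. It encodes the A chain, and the locus (ENSMUSG00000025856) is on chromosome 5 from 138976014 to 138997370 on the minus strand. Pdgfa had 10.3, 10.3 and 10.9 FPKM in the pECDC libraries, 13.9, 13.5 and 15.5 FPKM in the iECDC libraries and 10.3, 9.70 and 9.16 FPKM in the SB431542 libraries. All 3 iECDC libraries were above the other 6, and the pECDC and SB431542 libraries overlapped. It rose 1.35-fold in iECDCs against pECDCs (log2 change 0.43, SE 0.075, edgeR adjusted p = 0.00521) and fell by 0.55 on the log2 scale in SB431542-treated cells against iECDCs (SE 0.11, edgeR adjusted p = 0.00871). Against pECDCs the treated cells differed by -0.10, with a 95% interval from -0.29 to 0.086 (edgeR adjusted p = 0.352).

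The antisense gene 6330403L08Rik overlaps the span of Pdgfa on the opposite strand, and the sources do not state whether counting used strand. It had 177 to 375 counts in a library and rose in SB431542-treated cells against iECDCs (log2 change 0.71, SE 0.18, edgeR adjusted p = 0.0215), the direction opposite to that of Pdgfa. The part of reads shared by both genes was not tested.

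Pdgfc encodes the C chain, and its locus (ENSMUSG00000028019) is on chromosome 3 from 81036416 to 81214040 on the plus strand. It had 7.32, 6.85 and 6.89 FPKM in the pECDC libraries, 3.41, 3.37 and 3.45 FPKM in the iECDC libraries and 3.15, 2.55 and 2.86 FPKM in the SB431542 libraries. The pECDC libraries stood far above the other 6, and the SB431542 libraries stood below the iECDC libraries without overlap. Pdgfc fell by 1.06 on the log2 scale in iECDCs against pECDCs (SE 0.073, edgeR adjusted p = 3.32e-05), a size above that of 96.0% of genes tested, and by 1.29 in SB431542-treated cells against pECDCs (SE 0.10, edgeR adjusted p = 0.000342). Both calls held in all 15 alternatives of each comparison. Between SB431542-treated cells and iECDCs the log2 change was -0.25, with a 95% interval from -0.55 to 0.056 (edgeR adjusted p = 0.186).

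The balance of the A and C chains differed between the groups. Pdgfa was 1.41, 1.502 and 1.58 times Pdgfc in the pECDC libraries, 4.08, 4.01 and 4.50 times in the iECDC libraries and 3.28, 3.80 and 3.20 times in the SB431542 libraries. The mean log2 ratio of Pdgfa to Pdgfc was higher by 1.49 in iECDCs than in pECDCs, lower in SB431542-treated cells than in iECDCs (difference -0.29) and higher by 1.19 in SB431542-treated cells than in pECDCs. The groups did not overlap in any of these comparisons, and the exact two-sided permutation p was 0.1 in each, the smallest that can be reached. Of the summed FPKM of the 4 ligands, Pdgfc made up 30.1 to 32.6% in pECDCs, 14.97 to 15.5% in iECDCs and 16.4 to 17.2% in SB431542-treated cells. The sum itself was 22.4 to 22.9 FPKM in pECDCs, 22.3 to 22.7 in iECDCs and 15.3 to 18.3 in SB431542-treated cells.

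Pdgfd, the D chain gene on chromosome 9 (ENSMUSG00000032006, 6168584 to 6378850, plus strand), did not pass the test in any comparison. It had 4.78, 5.11 and 4.996 FPKM in the pECDC libraries, 5.21, 5.40 and 3.14 FPKM in the iECDC libraries and 4.77, 2.93 and 5.30 FPKM in the SB431542 libraries. The lowest values belonged to iECDC replicate 3 and SB431542 replicate 2, the libraries that stood apart, and the other 7 lay between 4.77 and 5.40. The log2 changes were -0.12 for iECDCs against pECDCs (95% interval -0.52 to 0.28, edgeR adjusted p = 0.683), -0.075 for SB431542-treated cells against iECDCs (-0.71 to 0.56, adjusted p = 0.850) and -0.19 for SB431542-treated cells against pECDCs (-0.69 to 0.31, adjusted p = 0.517).

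Pdgfb, the B chain gene on chromosome 15 (ENSMUSG00000000489, 79995874 to 80014977, minus strand), had 6, 10 and 12 counts in the pECDC libraries, 16, 16 and 10 counts in the iECDC libraries and 5, 7 and 7 counts in the SB431542 libraries. These counts are few, and the count filter removed the gene from the comparison of SB431542-treated cells with pECDCs. It fell by 1.24 on the log2 scale in SB431542-treated cells against iECDCs (SE 0.36, edgeR adjusted p = 0.0345), a call that was lost in 8 of 15 alternatives. In iECDCs against pECDCs the log2 change was 0.94 (95% interval 0.11 to 1.77, edgeR adjusted p = 0.117).

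**Figure D3:**
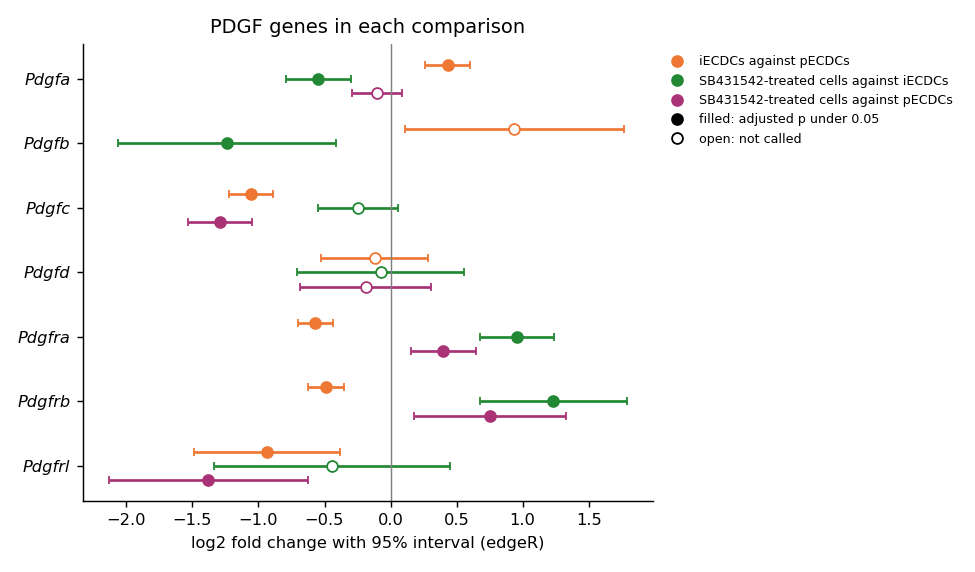
Log2 fold change with its 95% interval from edgeR (horizontal axis) for each PDGF gene (rows) in the 3 comparisons, which share groups. Filled points passed an adjusted p of 0.05 and open points did not. Both receptor genes fell in iECDCs against pECDCs and rose in SB431542-treated cells against iECDCs, while Pdgfa did the reverse.

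Beside the receptor changes, a gene of contractile cells moved in the same libraries. Acta2, smooth muscle actin, had 737, 714 and 733 FPKM in the pECDC libraries, 812, 848 and 1898 FPKM in the iECDC libraries and 137, 322 and 137 FPKM in the SB431542 libraries. SB431542 replicate 2 thus had the least Pdgfrb and Pdgfra of its group together with the most Acta2. The iECDC libraries did not show that order, since iECDC replicate 3 had the most Acta2 and also the most Pdgfrb of its group (23.4 FPKM), with Pdgfra at 10.7 FPKM between the other 2. Of the 9 mural cell markers, Acta2 and Myh11 fell and Notch3 rose in SB431542-treated cells against iECDCs, with 5 of 9 too low to test, and the summed level went from 816 to 1904 FPKM in iECDCs and from 145 to 329 FPKM in the treated cells, most of it Acta2. Of the 9 fibroblast markers, Dcn, Col3a1, Tcf21 and Ddr2 rose in that comparison, 3 were tested and not called, and 2 were not tested. Over all genes, 16% were called higher and 14% lower in that comparison. In iECDCs against pECDCs 0 of 8 fibroblast markers tested rose and 4 fell, and 1 of 5 mural cell markers tested rose and 2 fell. Over all genes, 7.21% were called higher and 9.21% lower in iECDCs against pECDCs. The summed level of the fibroblast markers was 778 to 937 FPKM in iECDCs and 1389, 636 and 1294 FPKM in the treated libraries. The part of these markers in the receptor changes was not tested, and in bulk RNA fewer cells of a type and less RNA per cell cannot be told apart.

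**Figure D4:**
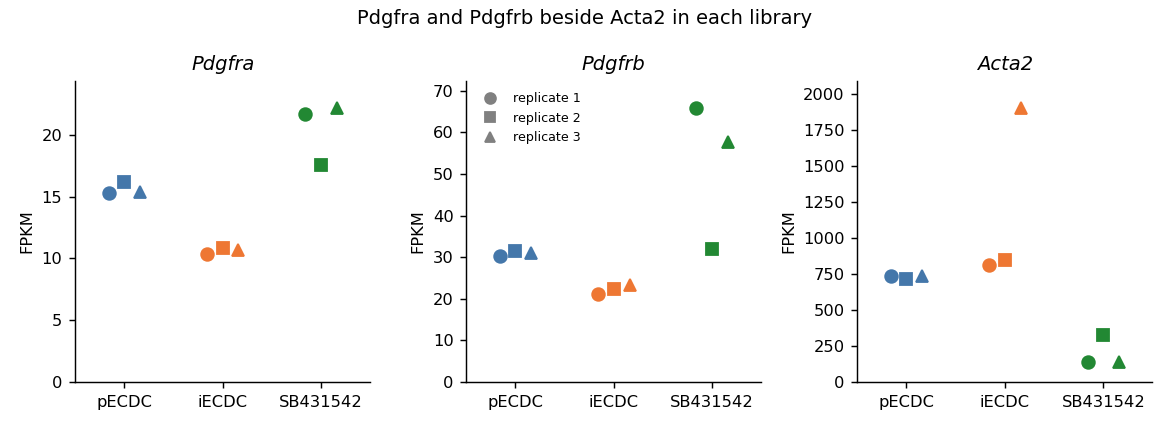
FPKM (vertical axes, from 0) of Pdgfra, Pdgfrb and Acta2 in each library of the 3 groups, 1 symbol per library. SB431542 replicate 2 has less Pdgfra (17.5 FPKM) and Pdgfrb (31.9) and more Acta2 (322) than the other SB431542 libraries, and iECDC replicate 3 has the most Acta2 (1898).

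The pathway around the receptors was read from 3 lists of 54 genes in all. They hold proteases and binding partners of the ligands, adaptors and effectors of the receptors, and proteins that end the signal. In iECDCs against pECDCs 12 of 53 genes tested were called, 5 higher and 7 lower (22.6%, beside 16.4% of all genes), with a median log2 change of -0.020 beside -0.0018 over all genes. That count was 5 without any single pECDC library and 25 without iECDC replicate 3, while the count over all genes went from 2258 to between 1036 and 1065 and to 4467. In SB431542-treated cells against iECDCs 20 of 52 were called, 15 higher and 5 lower (38.5%, beside 30% of all genes), with a median of 0.082 beside 0.0014 over all genes, and the count was 9 or 10 without iECDC replicate 1, iECDC replicate 2, SB431542 replicate 1 or SB431542 replicate 3, and 41 without both libraries that stood apart. Over all genes the count went from 4061 to between 1707 and 1886 and to 8951 in the same fits. Against pECDCs, in the treated cells, 32 of 53 were called, 20 higher and 12 lower (60.4%, beside 34.8% of all genes), with a median of 0.027 beside 0.0068 over all genes, and the count was 18 or 19 without any single pECDC library, while the count over all genes went from 4881 to between 2453 and 2522.

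Among the proteases, Plat, which encodes tissue plasminogen activator and can cut the C chain, had 9.56, 9.16 and 9.38 FPKM in the pECDC libraries, 6.98, 6.48 and 6.70 in the iECDC libraries and 21.9, 14.7 and 22.1 in the SB431542 libraries. It was lowest in iECDCs and highest in the treated cells, with no overlap, the same order of groups as Pdgfra and Pdgfrb. It fell by 0.49 on the log2 scale in iECDCs against pECDCs (SE 0.064, edgeR adjusted p = 0.00122) and was higher by 1.55 in SB431542-treated cells against iECDCs (SE 0.17, edgeR adjusted p = 0.00109). Plau, which encodes urokinase and can cut the D chain, went the other way, with log2 changes of 0.52 (adjusted p = 0.0483) and -1.16 (adjusted p = 0.00626) in the same edgeR comparisons. Pcsk6, a proprotein convertase, rose in SB431542-treated cells against pECDCs (log2 change 1.15, SE 0.31, edgeR adjusted p = 0.0265), and its FPKM was highest in SB431542 replicate 2 at 26.3 against 12.2 and 11.5 in the others. Nrp1, a co-receptor for several growth factors, rose by 0.45 against iECDCs and by 0.61 against pECDCs on the log2 scale (edgeR adjusted p = 0.0413 and 0.00780). Lrp1, an endocytic receptor that binds PDGF receptor beta, fell by 0.36 in iECDCs against pECDCs (edgeR adjusted p = 0.0172). Cspg4, a proteoglycan of pericytes that binds the A chain, had 37, 37 and 50 counts in the pECDC libraries, 4, 5 and 8 counts in the iECDC libraries and 1, 0 and 2 counts in the SB431542 libraries. Its fall in iECDCs against pECDCs passed the test (edgeR adjusted p = 0.00194), as did that in SB431542-treated cells against pECDCs (adjusted p = 0.00107).

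Among the 34 adaptors and effectors, 3 rose and 3 fell in iECDCs against pECDCs (17.6%, near the 16.4% of all genes). Pik3r1, the regulatory subunit of phosphoinositide 3-kinase that docks on the receptors, fell by 0.64 on the log2 scale (SE 0.094, edgeR adjusted p = 0.00233), and Pik3cb, a catalytic subunit, rose by 0.59 (SE 0.091, edgeR adjusted p = 0.00298). Hras and Fyn were also among those that rose, and Stat5a among those that fell. Under SB431542 against iECDCs 10 rose and 2 fell (35.3%, beside 30% of all genes), and the 2 subunits moved the opposite way to before, Pik3r1 by 0.94 (SE 0.16, edgeR adjusted p = 0.00570) and Pik3cb by -1.12 (SE 0.12, edgeR adjusted p = 0.000984). Stat5a, a transcription factor activated by the receptors, rose by 1.18 from 2.02 to 4.54 FPKM (edgeR adjusted p = 0.00209), and the docking protein gene Gab1 rose by 0.75 (adjusted p = 0.0147). Against pECDCs 14 rose and 6 fell (58.8%, beside 34.8% of all genes), with the kinase gene Jak1 at 0.58 (SE 0.064, edgeR adjusted p = 0.00121) among those higher.

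Among the 10 genes that end the receptor signal, 1 rose and 1 fell in iECDCs against pECDCs (20% called, near the 16.4% of all genes), Slc9a3r1 by 0.25 and Socs3 by -0.34 on the log2 scale (edgeR adjusted p = 0.0242 and 0.00773). Under SB431542 against iECDCs 3 rose and 2 fell, where 30% of all genes were called. Slc9a3r1, a scaffold that binds PDGF receptors, rose by 1.15 (SE 0.15, edgeR adjusted p = 0.00178), and Socs3, an inhibitor of JAK and STAT signals, rose by 1.08 (SE 0.16, edgeR adjusted p = 0.00311). Rasa1, a Ras GTPase activating protein that docks on PDGF receptor beta, changed by -0.91 (SE 0.15, edgeR adjusted p = 0.00467). Ptpn1, a tyrosine phosphatase, rose and Acp1, another phosphatase, fell. Against pECDCs 3 rose, Slc9a3r1, Socs3 and Ptpn1, and 4 fell, Rasa1, the phosphatase gene Ptpn2 and the ubiquitin ligase genes Cbl and Cblb, where 34.8% of all genes were called.

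**Figure D5:**
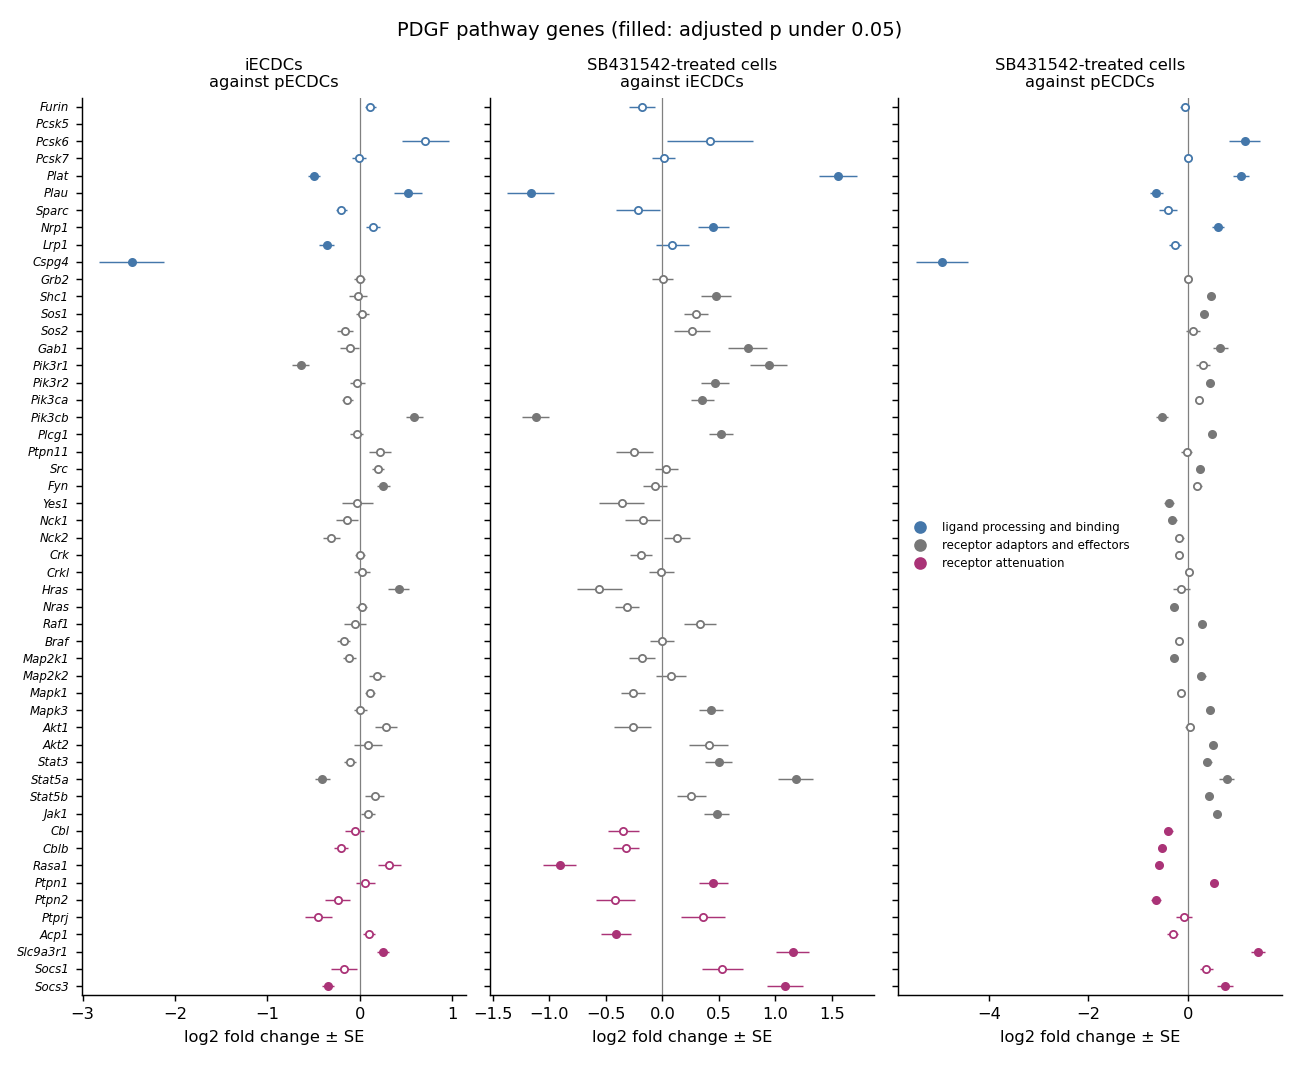
Log2 fold change ± SE from edgeR (horizontal axes, each panel with its own scale) of the PDGF pathway genes shown (rows, coloured by list) in the 3 comparisons. Filled points passed an adjusted p of 0.05, genes without a point were not tested, and filled points lie on both sides of 0 in each panel.

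Genes that growth factors induce within hours made up a further list of 20, of which 19 were tested in each comparison. In iECDCs against pECDCs 6 rose and 1 fell, beside 7.21% of all genes higher and 9.21% lower, with Fosl1, an AP-1 subunit, at 0.82 (SE 0.065, edgeR adjusted p = 7.62e-05) and the chemokine gene Ccl7 at -1.02 (SE 0.21, edgeR adjusted p = 0.0109). Under SB431542 against iECDCs 0 rose and 7 fell, beside a background of 16% higher and 14% lower. Ptgs2, the inducible cyclooxygenase, had 190, 187 and 71.9 FPKM in the iECDC libraries and 2.71, 17.2 and 3.37 FPKM in the SB431542 libraries. The hyaluronan synthase gene Has2 changed by -1.98 (SE 0.31, edgeR adjusted p = 0.00395) and Plaur, the urokinase receptor, by -1.84 (SE 0.21, edgeR adjusted p = 0.00123). Fosb and Nr4a1 were the other genes among the 5 largest changes, at -2.01 and -1.81 (edgeR adjusted p = 0.00389 and 0.00643). Against pECDCs 1 rose, Egr1, and 6 fell (36.8% called, near the 34.8% of all genes).

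Of 7 transcription factor genes known to act on PDGF genes, Ets1 rose by 0.45 in iECDCs against pECDCs (edgeR adjusted p = 0.00109) and changed by -0.78 in SB431542-treated cells against iECDCs (adjusted p = 0.00149), the same directions as Pdgfa. Tcf21, an epicardial and fibroblast factor, had 0.590, 0.570 and 0.388 FPKM in the iECDC libraries and 1.58, 1.38 and 1.34 FPKM in the SB431542 libraries, a log2 change of 1.47 (SE 0.26, edgeR adjusted p = 0.00565). Wt1, the Wilms tumour factor of the epicardium, had 2, 2 and 0 counts in the iECDC libraries and 43, 14 and 39 counts in the SB431542 libraries (edgeR adjusted p = 0.00615). In that comparison Sp3 rose as well, and in iECDCs against pECDCs Klf5 rose and Sp3 fell. Against pECDCs, Egr1, Tcf21 and Wt1 rose and Ets1 fell in the treated cells.

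Of the 6 related receptor tyrosine kinase genes, 3 were near 0 and 3 were expressed. Kit, which lies next to Pdgfra, had at most 4 counts, Flt3 at most 1 and Kdr at most 9 in any library, too few to test. Csf1r, which lies next to Pdgfrb, had 3.46 to 7.41 FPKM and did not pass the test in any comparison. Flt1, a receptor for vascular endothelial growth factor, fell by 1.75 in iECDCs against pECDCs (SE 0.076, edgeR adjusted p = 2.02e-06) and was higher by 1.24 in SB431542-treated cells against iECDCs (SE 0.33, edgeR adjusted p = 0.0248). Flt1 had 4.21, 1.54 and 3.77 FPKM in the SB431542 libraries and 1.29, 1.47 and 1.30 FPKM in the iECDC libraries. SB431542 replicate 2 was thus barely above the iECDC libraries. Flt4, another receptor of that family, rose by 0.97 in iECDCs against pECDCs (edgeR adjusted p = 5.06e-05).

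The protein-coding genes most like each member were ranked by Pearson r over the 9 libraries, on log2(CPM + 1). These values are descriptions over libraries that fall into 3 groups and carry no p. Closest to Pdgfra were Scarb2 (r = 0.995), Stc1 (0.989) and Tle3 (0.988). Closest to Pdgfrb were Lbh (0.996), Scd2 (0.995) and Slc43a3 (0.994). For Pdgfa they were Emp3 (0.985), Tmem192 (0.973) and Galnt18 (0.956), and for Pdgfc Efnb1 (0.984), Fam210b (0.981) and Crabp1 (0.981). Pdgfd went most with Yme1l1 (0.981), Snapc5 (0.9748) and Snx2 (0.964), Pdgfrl with Thbs3 (0.982), Txndc11 (0.967) and Cnpy4 (0.962), and Pdgfb with Tmem189 (0.933), Shcbp1 (0.912) and Rgs16 (0.908). Among the members themselves, r was 0.94 between Pdgfra and Pdgfrb and -0.93 between Pdgfa and Pdgfra.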

How the data were processed

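Gene expression was measured by bulk RNA sequencing in 9 libraries, 3 in each of 3 groups taken from the sample labels. The authors deposited raw read counts per gene and FPKM values (count divided by gene length and by a library constant). The submitters' processing notes name Bowtie2 2.0.6, TopHat2 2.0.9 and the build mm9, while start and end of all 7 members and of 53499 of 54532 genes equal those of GENCODE release 21 on GRCm38, so coordinates are given on GRCm38. The counting program's strand setting is not given in the sources used here.

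From the deposited counts, pairs of groups were compared with the edgeR 4.0.16 quasi-likelihood test (R 4.3.3), TMM scaling and filterByExpr (count minimum 10, total minimum 15), with Benjamini-Hochberg adjustment over all genes tested and a threshold of 0.05. The fits were tested on simulated data. In the comparison of iECDCs with pECDCs, 168 of 198 changed genes were recovered at a log2 fold change of 1 among 13575 genes, with 13 false calls. For SB431542-treated cells against iECDCs and against pECDCs, 137 of 195 and 157 of 196 were recovered, with 10 and 22 false calls. In each comparison the false calls were a higher share of the calls than the threshold of 0.05 aims at, most of all in the last. No simulated library was made to stand apart from its group, and far fewer genes were changed than were called in the data. The figures therefore do not cover those conditions. Ratios of FPKM were compared by an exact two-sided permutation test over libraries. Alternatives were DESeq2 1.42.0, other scalings and filters, limma 3.58.1 on log2(FPKM + 1) and log2(FPKM + 0.1), a replicate block and leaving out each library. Files that hold further annotation of the same genes were not used.

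The members and the gene lists were chosen with earlier results of these data known. Named genes were the 7 members, in each list the called genes with the 5 largest changes or those that a small count refers to, the 3 protein-coding genes most correlated with each member (mean of at least 5 FPKM in a group), and neighbouring or overlapping genes. Cdkn2a was chosen after its values were seen. Some genes of the lists are counted but not reported here by name. Same-numbered libraries of different groups did not deviate together (r from -0.24 to 0.04), so the numbers were not taken as pairs.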

Additional observations from a re-analysis of the deposited data

How the results depend on the processing

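Pdgfa and Pdgfra kept their calls in iECDCs against pECDCs and in SB431542-treated cells against iECDCs under every alternative run, as did Pdgfc in both comparisons with pECDCs and Pdgfrb in SB431542-treated cells against iECDCs. The 3 comparisons gave 5, 4 and 4 members called. In iECDCs against pECDCs the count was 3 members and 3 pathway genes with all 9 libraries in the fit, and leaving out 1 library gave 4 to 5 members and 5 to 25 pathway genes. For SB431542-treated cells against iECDCs leaving out 1 library gave 3 to 4 members and 9 to 26 pathway genes, and leaving out both iECDC replicate 3 and SB431542 replicate 2, an alternative chosen after seeing the data, gave 41 pathway genes. For SB431542-treated cells against pECDCs leaving out 1 library gave 1 to 4 members and 18 to 44 pathway genes.

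With the replicate block, the counts were 4 members in iECDCs against pECDCs, 11 pathway genes in SB431542-treated cells against iECDCs and 2 members in SB431542-treated cells against pECDCs, where Pdgfra had an adjusted p of 0.0560 and Pdgfrb of 0.0651. The labels do not say whether same-numbered libraries belong together, and the main fits did not pair them.

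The fold change of Pdgfd, which was not called, lay between -0.25 and 0.088 in iECDCs against pECDCs when 1 library was left out, between -0.30 and 0.14 in SB431542-treated cells against iECDCs, and between -0.36 and 0.032 in SB431542-treated cells against pECDCs. Its sign changed without iECDC replicate 3 in the first, without iECDC replicate 1, iECDC replicate 2 or SB431542 replicate 2 in the second, and without SB431542 replicate 2 in the third. The cause of these changes was not tested. The ratios kept their direction under a pseudocount of 1 and without any single library, but the Pdgfra to Pdgfrb differences of the treated cells changed in size by over 1.5 times. Over all genes, calls ranged from 671 to 4467, from 1707 to 8951 and from 2453 to 9188 in the 3 comparisons. Pdgfb and Pdgfrl had 5 to 93 counts in a library, the fewest of the members, and a part of depth in their lost calls was not tested.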
